A study of Mus musculus with 8 samples.

Results

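The forkhead genes are a family of transcription factors that share a winged-helix DNA-binding domain, and they were followed here in mouse embryonic stem cells (ES), mouse embryonic fibroblasts (MEF) and 2 preparations of induced pluripotent stem cells made from MEF with small molecules. Every non-control probe of the Agilent array whose gene name in the MEF scanner file ran from Foxa to Foxs with a number was taken, less 1 gene that was left out by that rule. This gave 53 probes of 37 genes among 41174 non-control probes with 27962 gene names. The rule used names alone and no measured value. RefSeq lists 43 protein-coding forkhead genes beside the one left out. Of these, 37 had such a probe, 3 were found only under older names (Foxn3 as Ches1, Foxo4 as Mllt7, Foxs1 as Fkhl18), and for Foxi3, Foxr1 and Foxr2 no probe was found here.

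The ES cells were derived from blastocysts of 129/Ola mice, and no genetic background was labelled for the other groups. PM2i-iPSC were MEF treated with combinations of purmorphamine and then with 2i/LIF, and OM2i-iPSC were MEF treated with combinations of oxysterol and then with 2i/LIF. Purmorphamine is a synthetic agonist of Smoothened, the transducer of Hedgehog signals, and some oxysterols also activate Smoothened. 2i/LIF joins a MEK inhibitor and a GSK3 inhibitor with leukaemia inhibitory factor and holds mouse pluripotent cells in the naive state. The labels give no dose, time, passage or number of cultures, and they name no introduced gene. Total RNA of each group was hybridised with Cy3 to 1 array, so there is no replicate check, no test was possible, and each fold below describes 2 arrays. In bulk RNA, fewer cells of a type and less RNA per cell cannot be told apart. A further 4 samples of the series were measured on Affymetrix arrays and were not used here: ES cells, astrocytes, uninduced astrocytes that carried Bmi1, and spheres grown from such Bmi1 astrocytes.

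Forkhead factors bind a short core motif as monomers, and some of them, first of all the Foxa proteins, open closed chromatin. Foxc, Foxf and Foxd1 pattern mesoderm-derived and mesenchymal tissues. Foxd3 and Foxh1 act in the early embryo, Foxd3 in pluripotent cells and neural crest and Foxh1 as the DNA-binding partner of Smad proteins below Nodal. Foxo proteins respond to insulin and Akt, Foxm1 drives mitotic genes, and Foxj1 switches on the genes of motile cilia.

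Levels are the log2 of the processed signal minus the log2 of the array's 75th percentile, so 0 marks that percentile, and where 4 levels follow each other they stand in the order ES, MEF, PM2i-iPSC, OM2i-iPSC. A probe that the scanner software did not find well above background has only an upper bound there, and folds against it are given as "at least". That floor was lower on the MEF array, at -6.85, than on the ES (-5.13), OM2i-iPSC (-4.60) and PM2i-iPSC (-4.59) arrays. On these arrays in that order, 47, 36, 35 and 30 forkhead probes lay well above background. Of all non-control spots, 72.8%, 66.9%, 66.3% and 63.4% did so. ES and PM2i-iPSC lay on the same slide, OM2i-iPSC and MEF each on another, and MEF was scanned on another day with an older software version. Except between ES and PM2i-iPSC, group and slide therefore cannot be told apart. Within an array, repeated spots of a probe had a log2 SD of 0.189, which gives a log2 SD of 0.267 to a difference between arrays and covers spot noise only. Centring on the array median in place of the 75th percentile moved every difference of ES, PM2i-iPSC and OM2i-iPSC from MEF by -0.56, -0.63 and -0.74. None of the 115 forkhead differences of at least 2-fold changed sign under the alternative settings that gave a value, but many changed in size. With median, quantile and normexp scaling 76, 67 and 71 of the 115 moved by more than the spot SD of a difference, and 9, 16 and 22 fell under 2-fold. The labelled cell types were checked on marker genes. All 9 pluripotency markers were well above background on every array, but their summed level was 126, 111 and 97.6 times the 75th percentile in ES, PM2i-iPSC and OM2i-iPSC against 1.49 in MEF. The summed level of 11 fibroblast markers was 177 in MEF against 10, 5.51 and 7.30 in ES, PM2i-iPSC and OM2i-iPSC, where 10, 8 and 8 of them were well above background. The mesoderm markers summed to at most 0.0702 on any array.

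The fibroblast members are introduced first with their probe sequences, since the widest differences in the family rest on these few oligonucleotides. A member was called fibroblast-specific when its MEF level was at least 4-fold above each of the other arrays. The first 30 bases of each probe are shown 5′ to 3′ as the MEF file gives them, in lower case since no part is marked.
Foxc2 A_51_P196444: cacaccaaaagactttaaaatttcaatctc
Foxc1 A_51_P107686: gttacggaccaaacaccagaaagtgttcca
Foxf2 A_51_P248865: ttttatgatcttcgtatactcacacttcgc
Foxd1 A_52_P128134: gaaataagtcgaaatttaccatttcctatt
On build mm7 of the MEF file, the Foxc2 probe lies at chr8:119751942-119752001, that of Foxc1 at chr13:31174935-31174994, that of Foxf2 at chr13:30996817-30996876, and that of Foxd1 at chr13:95426359-95426418. Whether they lie in coding sequence or in a UTR is not known here, since no annotation of that build was used.

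Probes of Foxc1, Foxc2, Foxf2 and Foxd1 met the fibroblast line, 4 of 47 forkhead probes or 8.51%. This count is near the 6.48% of all probes and is no result about the family. Counted by the brightest probe of each gene the class held 3, without Foxd1. Outside the naming rule, Foxo4 and a probe of Foxn3 also met the 4-fold line. Foxc2, a regulator of lymphatic, vascular and skeletal mesenchyme, had the widest difference of any forkhead probe. Foxc2 read -3.25, 3.41, -5.49 and -3.91, with the PM2i-iPSC value not well above background. MEF was therefore the high array and the other 3 were low, by 101-fold in ES, at least 256-fold in PM2i-iPSC and 160-fold in OM2i-iPSC. Foxc1, its close relative in eye, heart and somite development, read -7.06, 1.07, -6.46 and -3.66, with the ES and PM2i-iPSC values not well above background. It was lower than MEF by at least 73.8-fold in ES, by at least 50.6-fold in PM2i-iPSC and by 26.5-fold in OM2i-iPSC. OM2i-iPSC was thus the only one of these preparations with Foxc1 well above background, at least 2.78-fold above ES and at least 1.91-fold above PM2i-iPSC, the latter short of 2-fold.

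Foxf2, a Hedgehog-responsive factor of gut and palate mesenchyme, read -2.57 in MEF and was not well above background in ES (-7.47), PM2i-iPSC (-6.74) or OM2i-iPSC (-6.94). The bounds were at least 5.90-fold, 4.05-fold and 4.09-fold, so it lay just inside the 4-fold line. Foxd1 marks renal stroma and other mesenchymal progenitors. Its probe A_52_P128134 read -1.83 in MEF and was not well above background in ES (-4.85), PM2i-iPSC (-6.42) or OM2i-iPSC (-6.20), at least 8.11-fold, 6.78-fold and 6.85-fold lower. The other Foxd1 probe, A_51_P237783, counted as its brightest, read -3.58 in ES, -2.0 in MEF and -4.71 in OM2i-iPSC (not well above background). Its PM2i-iPSC spot was flagged as an outlier and has no value, so this probe is in no class. By that probe ES was 3.01-fold and OM2i-iPSC at least 6.09-fold lower than MEF, the same direction with a smaller gap in ES. The probe just outside the line was A_52_P630473 of Foxk2, 3.93-fold above its nearest array. At a 2-fold line 9 probes were in the class, beside 14.8% of all probes, with probes of Foxd3, Foxp1, Foxj2 and Foxk2 among those added, and at an 8-fold line 2 probes remained, those of Foxc1 and Foxc2, beside 3.15%.

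**Figure D1:**
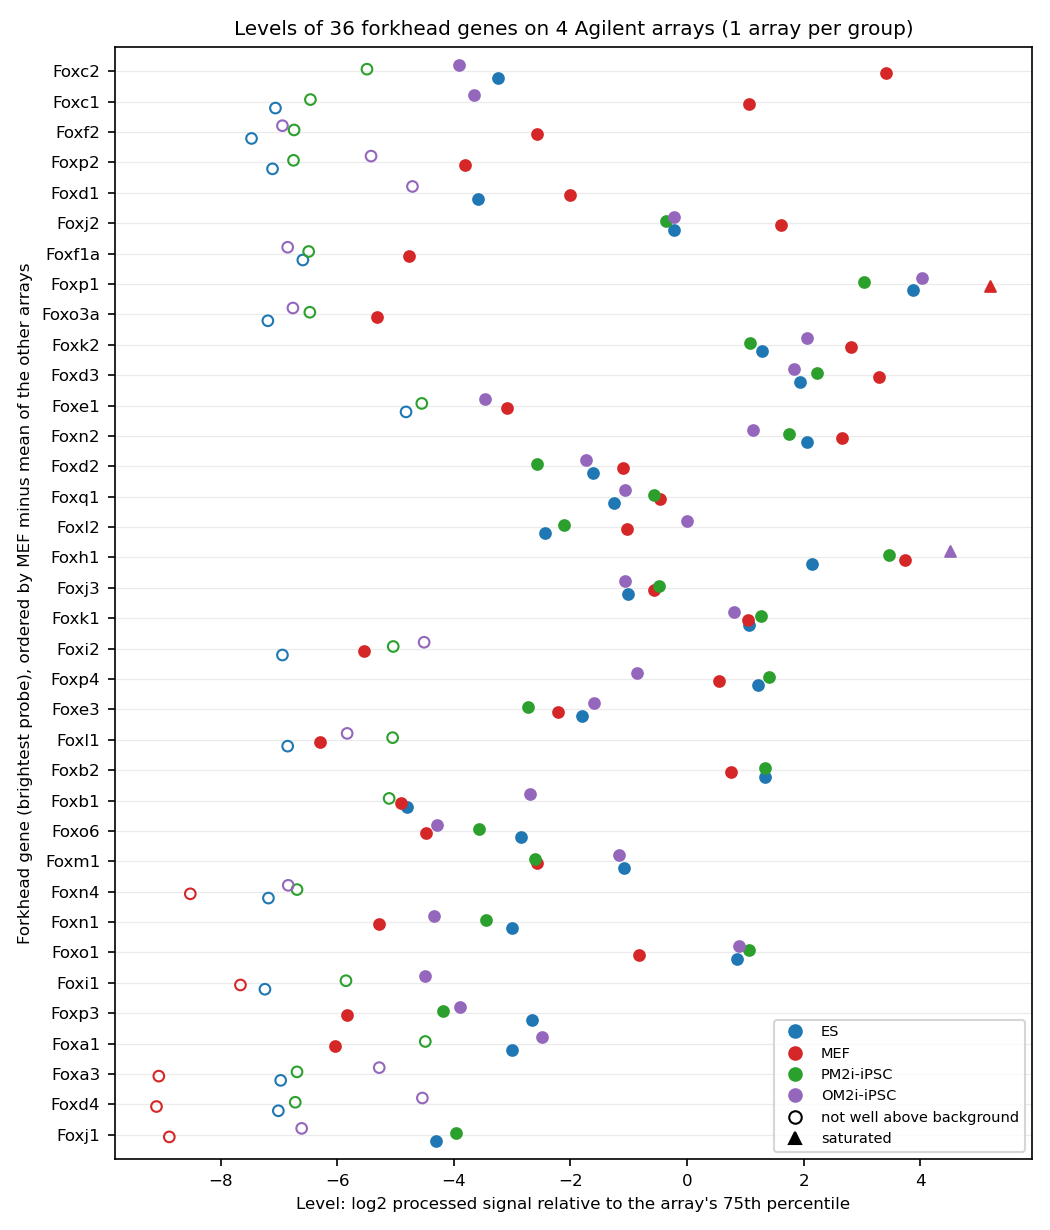
Level of 36 forkhead genes by their brightest probes (x axis, log2 relative to the 75th percentile of the array) on the 4 arrays, 1 point per array, with genes ordered by MEF minus the mean of the other arrays. Foxc2, Foxc1 and Foxf2 lead at the top with MEF at 3.41, 1.07 and -2.57 and every other array at -3.25 or below, while at the bottom Foxj1 was well above background in ES and PM2i-iPSC alone.

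Some of these genes neighbour each other in the genome. By probe positions on mm7, Foxf2 lay 178.1 kb from Foxc1 and 71.27 kb from Foxq1 on chromosome 13, and Foxc2 lay 32.01 kb from Foxf1a and 9.899 kb from Foxl1 on chromosome 8. Foxq1, a factor of epithelia and hair, did not follow its neighbours, with -1.26, -0.46, -0.57 and -1.06 on the 4 arrays and no 2-fold difference. Foxf1a (Foxf1), which acts with Foxf2 in splanchnic mesenchyme, read -4.77 in MEF and was not well above background on the other 3 arrays. Foxl1, a factor of subepithelial intestinal fibroblasts, did the same at -6.30 in MEF. These MEF values are so near the higher floors of the other arrays that the bound for Foxf1a in ES is only at least 1.29-fold, and none can be given for Foxl1. On chromosome 4, Foxd2 and Foxe3 lay 18.45 kb apart. Foxd2 read -1.62, -1.10, -2.57 and -1.73, lower in PM2i-iPSC than in MEF by 2.77-fold, and the lens factor Foxe3 read -1.80, -2.21, -2.73 and -1.59, with PM2i-iPSC 2.20-fold below OM2i-iPSC.

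Promoters were available from RefSeq (GRCm38.p6) as 300 bases, from 250 before to 50 after the start, for 23 of the 37 genes in 26 entries. Those of the fibroblast members Foxf2 (chr13:31625566-31625865, plus strand) and Foxc1 (chr13:31806396-31806695, plus strand) are shown 5′ to 3′ since these neighbours were both not well above background in ES and PM2i-iPSC. Capitals mark GC boxes (GGGCGG) and CCAAT boxes (CCAAT), searched on both strands.
Foxf2 promoter: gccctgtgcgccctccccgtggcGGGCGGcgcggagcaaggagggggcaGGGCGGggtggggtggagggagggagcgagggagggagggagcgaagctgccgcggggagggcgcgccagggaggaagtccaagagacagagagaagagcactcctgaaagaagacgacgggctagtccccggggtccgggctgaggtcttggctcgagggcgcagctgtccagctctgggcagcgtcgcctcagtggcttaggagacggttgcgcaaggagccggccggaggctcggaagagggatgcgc
Foxc1 promoter: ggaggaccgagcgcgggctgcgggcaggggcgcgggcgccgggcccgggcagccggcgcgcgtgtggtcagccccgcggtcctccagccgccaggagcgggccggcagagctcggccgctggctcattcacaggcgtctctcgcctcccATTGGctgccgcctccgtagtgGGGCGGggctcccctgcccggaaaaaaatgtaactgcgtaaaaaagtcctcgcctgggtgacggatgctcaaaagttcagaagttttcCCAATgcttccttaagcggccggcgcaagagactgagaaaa
The Foxf2 window was 71.3% G+C with 2 GC boxes, and that of Foxc1 was 67.3% G+C with 1 GC box and 2 CCAAT boxes. GC boxes were present in 19 of the 26 forkhead promoters and in 35.7% of all 32851, and CCAAT boxes in 13 of 26 and in 37.4%. TATAAA was found in 2 of 26 against 13.6%, the forkhead core TGTTTAC in 1 (Foxa1) against 3.65%, and the E-box CACGTG in 1 (Foxd3) against 7.15%. Median G+C was 64.2% over forkhead promoters and 52.7% over all, and the observed over expected CpG ratio was 0.698 against 0.384. A match of letters is a description only.

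Genes that work with Foxc, Foxd1 and Foxf in mesenchyme were lower in the pluripotent preparations as well. Of this list of 16 genes, 28 probes could be compared between ES and MEF, and 21 were at least 2-fold lower in ES and 2 higher. In PM2i-iPSC 19 of 27 were lower and 0 higher, and in OM2i-iPSC 20 of 27 were lower and 1 higher. Of all probes, 22.3%, 23.4% and 23.5% were lower than MEF in ES, PM2i-iPSC and OM2i-iPSC, and 34.3%, 34.0% and 35.9% higher. Twist2, a basic helix-loop-helix factor of dermis, read -2.56, 4.90, -2.71 and -3.94, or 177-fold, 196-fold and 461-fold lower than MEF. Tbx18, a T-box factor of mesenchymal progenitors, read 1.40 in MEF and was not well above background elsewhere, at least 92.9-fold lower in ES. Median differences over the list were -3.17, -4.47 and -3.44 for ES, PM2i-iPSC and OM2i-iPSC, against 0.31, 0.29 and 0.34 over all probes. By the Euclidean distance of the 4 log2 levels, the genes most alike to Foxc2 among 12949 were Prkg2 (0.91), Dnm3os (0.97), Bdnf (1.27), Flrt2 (1.28) and Lox (1.30). All 5 were at 3.32 or above in MEF and not well above background in PM2i-iPSC, as Foxc2 was. They were picked by these same levels, so this likeness is no separate observation. Hedgehog genes, which lie upstream of Foxf and Foxl in gut mesenchyme, went both ways. Of 18 probes 10 were higher and 5 lower in ES than in MEF, of 17 probes 8 and 4 in PM2i-iPSC, and of 18 probes 9 and 4 in OM2i-iPSC. The lower counts are near the 22.3%, 23.4% and 23.5% of all probes, and 34.3%, 34.0% and 35.9% of all probes were higher. Gli1, the transcriptional target of the pathway, read -3.14, -5.37, -2.92 and -3.27, between 4.28-fold and 5.47-fold above MEF in the 3 pluripotent preparations. Smo read 1.93, 4.44, 2.62 and 1.66, or 5.66-fold, 3.52-fold and 6.86-fold below MEF.

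Across the family, the share of forkhead probes higher in ES and PM2i-iPSC than in MEF was below that of all probes, and the share of lower ones was above it. Of 48 forkhead probes compared between ES and MEF, 12 (25.0%) were at least 2-fold higher in ES, beside 34.3% of all probes, and 15 (31.2%) lower, beside 22.3%. In PM2i-iPSC 10 of 47 (21.3%) were higher than MEF, beside 34.0%, and 14 (29.8%) lower, beside 23.4%. In OM2i-iPSC 13 of 47 (27.7%) were higher, beside 35.9%, and 12 (25.5%) lower, beside 23.5%, which for the lower probes is near the background. The median forkhead difference from MEF was -0.32 in ES, -0.26 in PM2i-iPSC and 0.02 in OM2i-iPSC. The split depends on the centre: on the array median the counts became 10 higher and 20 lower in ES, 10 and 18 in PM2i-iPSC, and 9 and 18 in OM2i-iPSC, while the share of higher among all called probes went from 60.6% to 45.1% in ES, from 59.2% to 43.2% in PM2i-iPSC and from 60.5% to 42.7% in OM2i-iPSC. With quantile normalisation OM2i-iPSC had 9 higher and 13 lower. Where only probes well above background on both arrays were counted, 11 were higher and 10 lower in ES. In that setting the counts were 9 and 8 in PM2i-iPSC, and 12 and 8 in OM2i-iPSC. The share of higher among called forkhead probes was then 52.4%, 52.9% and 60.0% in ES, PM2i-iPSC and OM2i-iPSC. Among all called probes it was 61.7%, 61.1% and 60.6%, so the forkhead share stayed below it, in OM2i-iPSC only just. No test of these shares was made, and probes of the same gene are not independent.

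**Figure D2:**
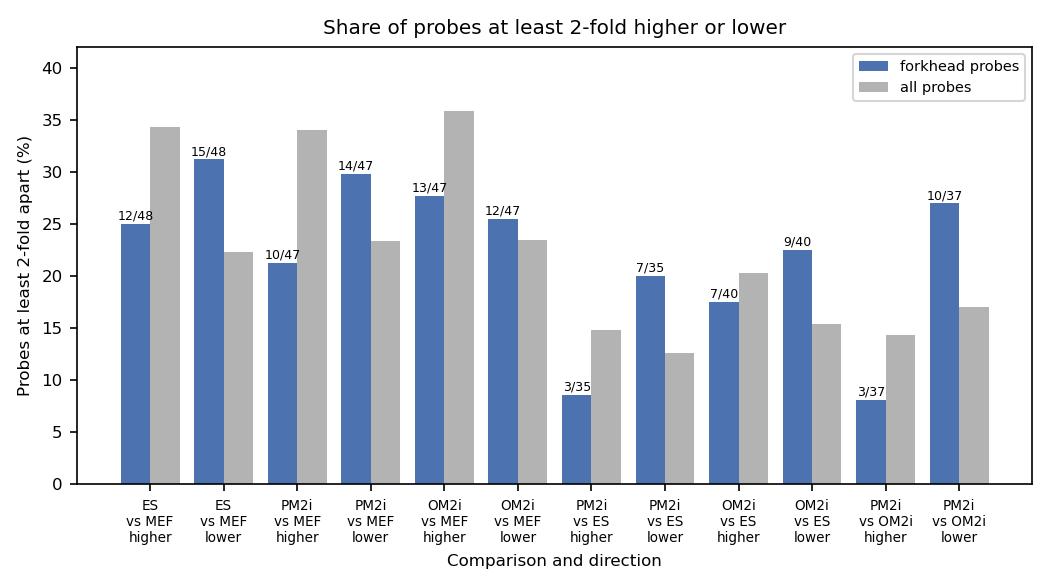
Percentage of probes at least 2-fold higher or lower (y axis) in each comparison and direction (x axis), for forkhead probes (blue, with the count of the probes compared) and for all probes (grey). In ES and PM2i-iPSC against MEF the blue bar is below the grey one for higher probes (25.0% and 21.3% against 34.3% and 34.0%) and above it for lower probes.

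The members known from pluripotent cells were not specific to them here. Foxd3, which maintains epiblast and neural crest progenitors, read 1.93, 3.29, 2.22 and 1.84. MEF was the highest array, and ES, PM2i-iPSC and OM2i-iPSC were 2.57-fold, 2.09-fold and 2.73-fold lower. Foxh1, the Smad partner in Nodal signalling, read 2.14, 3.73, 3.47 and 4.51, and its OM2i-iPSC spot was saturated. ES was the low array, 3.01-fold below MEF, 2.52-fold below PM2i-iPSC and at least 5.16-fold below OM2i-iPSC. Each of these genes has 1 probe, so no other probe could be set beside these values. Genes of the Nodal pathway went both ways. Nodal read 2.95, -3.06, 2.71 and 3.29, with ES 64.2-fold above MEF, and its coreceptor Tdgf1 was 219-fold above MEF in ES. Smad3, a signal transducer of the pathway, was 22.7-fold lower in ES than in MEF by its brightest probe. Of 18 probes of the list 7 were higher and 5 lower in ES and the same numbers in PM2i-iPSC, and 9 and 6 in OM2i-iPSC, beside 34.3%, 34.0% and 35.9% higher and 22.3%, 23.4% and 23.5% lower among all probes. Lefty1, a feedback inhibitor, read -0.46, -2.63, -1.29 and 1.34, so that OM2i-iPSC was the highest array for it as for Foxh1. Its paralogue Lefty2 read -2.55, -5.82, -6.43 (not well above background) and -3.21, with ES, the low array for Foxh1, the highest. Whether these genes follow Foxh1 was not tested.

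**Figure D3:**
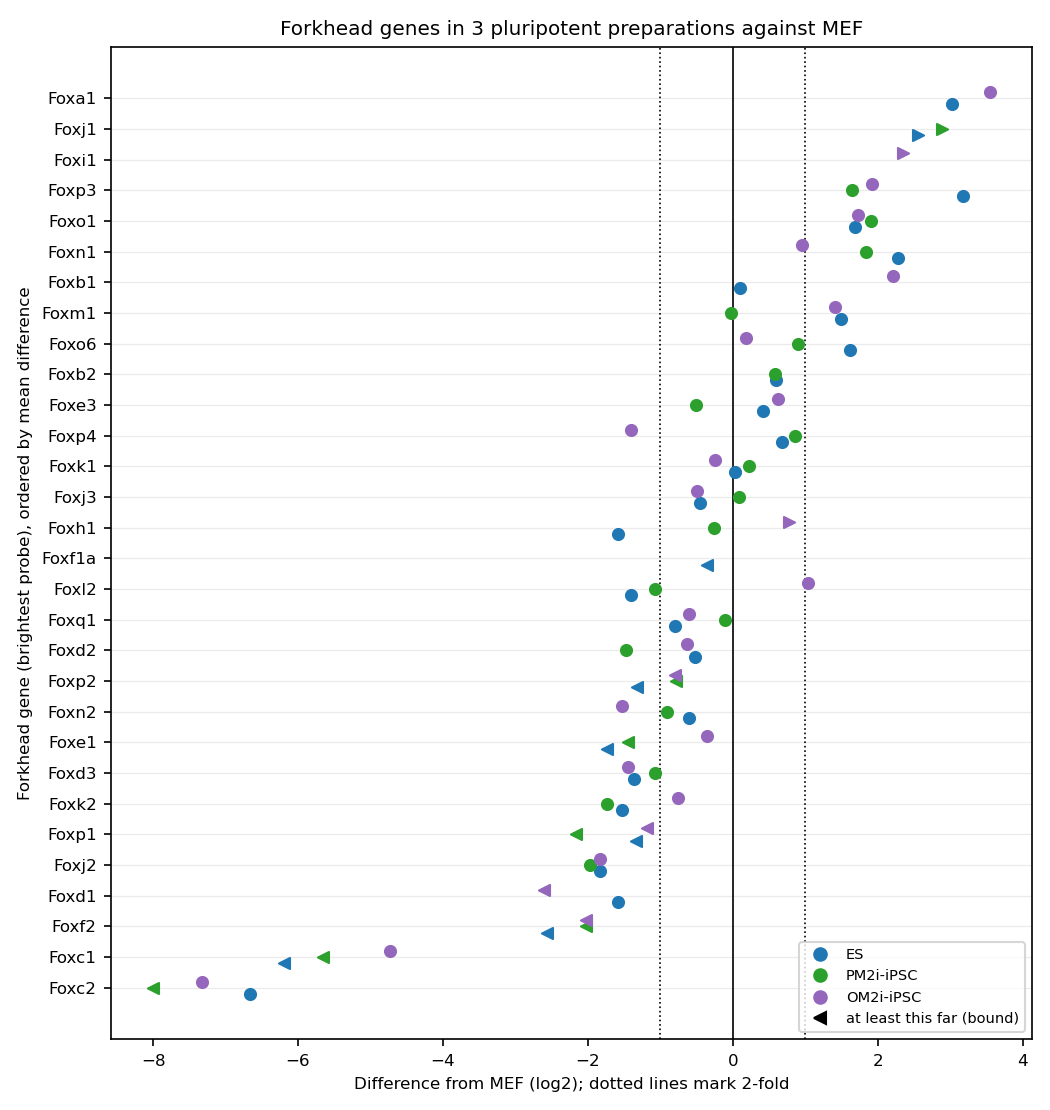
Difference of ES, PM2i-iPSC and OM2i-iPSC from MEF (x axis, log2, dotted lines at 2-fold) for forkhead genes by their brightest probes (y axis), where triangles are bounds and genes without a value are not drawn. Foxc2 and Foxc1 lie farthest left at -6.66 to -8.0 and -4.73 to -6.20, and Foxa1 farthest right at 3.03 in ES and 3.55 in OM2i-iPSC.

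No forkhead gene was pluripotent-specific by its brightest probe. The class, at least 4-fold above MEF in each of the other arrays, held 2 of 47 forkhead probes (4.26%), beside 11.2% of all probes, and these were weaker probes of Foxk2 and Foxn2 whose brightest probes were lower than MEF in all 3 preparations. Foxk2 is a broadly expressed repressor of autophagy genes, and Foxn2 belongs to another branch of the family. The probes are shown because the direction of each gene depends on which of them is read, first 30 bases 5′ to 3′.
Foxk2 A_51_P378807: acctgtgtcctgggtacggtgcattccaga
Foxk2 A_52_P407889: agaatgacgtcccacactaatcctgactta
Foxk2 A_52_P630473: ttactgaataatggggtctttgacatttca
Foxk2 A_51_P131494: aaagattaaatgaatggacacatccttttt
Foxn2 A_52_P346113: atgtaaagggttcatactagatggtcagtt
Foxn2 A_52_P431139: ccatccgtagagccttgtaatttttatcct
Foxn2 A_51_P265047: taaatgttttcagaaagtggaaagaagtca
The Foxk2 probes lie at chr11:121418585-121418644, chr11:121417227-121417286, chr11:121416515-121416574 and chr11:121405885-121405944 on mm7 in the order shown, so the last lies apart from the other 3. The Foxn2 probes lie at chr17:86795483-86795542 and chr17:86783217-86783276, and the third spans chr17:86769168-86779636, more than its own length.

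Foxk2 probe A_51_P131494 read -1.84, -5.04, -1.35 and -0.56, with MEF the low array by 9.18-fold, 12.9-fold and 22.3-fold. The brightest Foxk2 probe, A_51_P378807, read 1.28, 2.81, 1.08 and 2.05, with ES 2.90-fold and PM2i-iPSC 3.32-fold below MEF. A_52_P630473 read -3.49 in ES and -1.52 in MEF and was not well above background in the iPSC preparations, where it was at least 8.42-fold (PM2i-iPSC) and 8.50-fold (OM2i-iPSC) below MEF. The last of the 4, A_52_P407889, read -0.27, -0.08, -0.77 and 0.60 and differed from MEF by less than 2-fold. The Foxk2 probes thus lay on opposite sides of MEF in all 3 preparations. Foxn2 probe A_52_P431139 read -1.30, -5.53, -2.71 and -3.35, or 18.9-fold, 7.10-fold and 4.54-fold above MEF, just inside the class line. Probe A_51_P265047 of Foxn2 read -2.12, -5.45 and -1.81 and was not well above background in OM2i-iPSC (-4.71). Its ES and PM2i-iPSC values were above MEF by 3.33 and 3.64 on the log2 scale. The brightest Foxn2 probe, A_52_P346113, read 2.06, 2.65, 1.75 and 1.13, with OM2i-iPSC 2.88-fold below MEF. Of the 10 genes with several probes, these 2 had probes at least 2-fold apart in opposite directions.

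**Figure D4:**
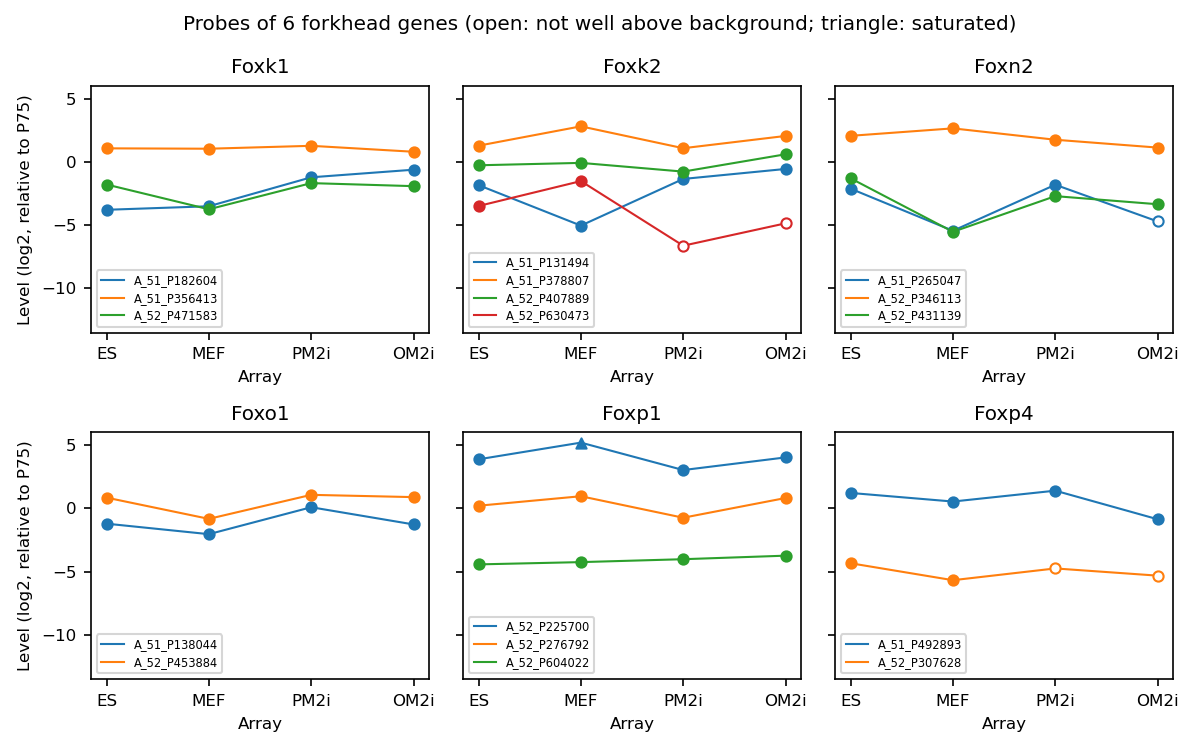
Level (y axis, log2 relative to the 75th percentile) of each probe of Foxk1, Foxk2, Foxn2, Foxo1, Foxp1 and Foxp4 on the 4 arrays (x axis), 1 line per probe. Foxk2 A_51_P131494 dips in MEF to -5.04 where A_51_P378807 peaks at 2.81, and the dimmer Foxn2 probes dip to -5.53 and -5.45 where the brightest is at 2.65.

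Foxk1, the paralogue of Foxk2 known from muscle progenitors, had 3 probes. The brightest, A_51_P356413, read 1.07, 1.04, 1.27 and 0.80 and differed between no pair of arrays by 2-fold. A_52_P471583 read -1.79, -3.75, -1.68 and -1.92, with MEF low by 3.88-fold, 4.19-fold and 3.56-fold, which put it just outside the pluripotent class. A_51_P182604 read -3.79, -3.51, -1.22 and -0.62, with both iPSC preparations high, 5.91-fold and 8.96-fold above ES. The gap between ES and the iPSC preparations was thus seen by 1 of the 3 Foxk1 probes.

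Foxo1, the insulin-responsive factor that Akt holds out of the nucleus, was higher in each pluripotent preparation than in MEF, though not by 2-fold with both probes. Its brightest probe, A_52_P453884, read 0.85, -0.83, 1.07 and 0.89, with MEF low by 3.21-fold, 3.75-fold and 3.31-fold. The other probe, A_51_P138044, read -1.21, -2.04, 0.09 and -1.27, with PM2i-iPSC high, 2.45-fold above ES, 4.38-fold above MEF and 2.56-fold above OM2i-iPSC. By that probe ES and OM2i-iPSC were 1.78-fold and 1.71-fold above MEF, both under 2-fold. Foxo3a (Foxo3), which acts in stress and in quiescent cells, was well above background only in MEF and there by 1 probe of 2, at -5.31. That value is below the floor of the other arrays, so no fold can be given. Foxo6, a neural member, read -2.85, -4.47, -3.57 and -4.29, with ES 3.07-fold above MEF and 2.71-fold above OM2i-iPSC. Foxo4, found under its older name Mllt7 and so outside the rule, read -3.55, 0.45, -3.52 and -3.12, or 16.0-fold, 15.7-fold and 11.9-fold below MEF. Foxo4 thus met the 4-fold line of the fibroblast class. Of the kinases and other regulators of Foxo, 8 probes were higher and 10 lower of 42 in ES, 9 and 13 of 42 in PM2i-iPSC, and 10 and 17 of 43 in OM2i-iPSC. Among all probes 34.3%, 34.0% and 35.9% were higher and 22.3%, 23.4% and 23.5% lower, so the lower count in ES is near the background. Among them Irs1, the insulin receptor substrate, was 58.9-fold lower in ES than in MEF, and the deacetylase Sirt1 was 15.8-fold higher. Of the Foxo target genes 13 probes were higher and 9 lower of 35 in ES, 13 and 11 of 35 in PM2i-iPSC and 13 and 11 of 36 in OM2i-iPSC. Beside the same shares of all probes (34.3%, 34.0% and 35.9% higher, 22.3%, 23.4% and 23.5% lower) these counts are near the background and are no result about the list. Trim63, a ubiquitin ligase of muscle, exceeded its MEF level 23.3-fold in ES, and Fbxo32, another, was 20.2-fold below it.

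Foxm1, the activator of genes of mitosis, read -1.09, -2.58, -2.61 and -1.17. ES and OM2i-iPSC were high, 2.81-fold and 2.67-fold above MEF, and PM2i-iPSC lay with MEF, 2.87-fold below ES. Of 27 probes of 18 target genes, 18 were higher and 1 lower than MEF in ES, 20 and 1 in PM2i-iPSC, and 15 and 4 in OM2i-iPSC. Among all probes 34.3%, 34.0% and 35.9% were higher and 22.3%, 23.4% and 23.5% lower. Set directly against ES, 5 of 27 target probes were higher and 3 lower in PM2i-iPSC, beside 14.8% and 12.6% of all probes. The median difference was -0.26, beside -0.05. In OM2i-iPSC against ES 2 of 28 were higher and 11 lower, beside 20.3% and 15.4%, with a median of -0.7, beside -0.01. Between the iPSC preparations 7 of 28 were higher in PM2i-iPSC and 0 lower, beside 14.3% and 17.0%. The phosphatase gene Cdc25c read -0.01, -3.44, 0.04 and 0.18 and the spindle checkpoint kinase gene Bub1b 2.33, -0.93, 2.54 and 2.34. By these probes the 3 preparations lay together above MEF, PM2i-iPSC with its lower Foxm1 signal among them. The other Cdc25c probe was above MEF in ES by 0.97 on the log2 scale. Cks1b went the other way, at 0.58, 2.59, 1.87 and 0.83. It was 4.04-fold below MEF in ES, 1.65-fold in PM2i-iPSC and 3.4-fold in OM2i-iPSC. Whether the target genes follow Foxm1 was not tested.

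Among the Foxp genes, which encode repressors with a zinc finger and leucine zipper, Foxp1 read 3.88, 5.20, 3.03 and 4.03 by its brightest probe. The MEF spot was saturated, so ES, PM2i-iPSC and OM2i-iPSC were at least 2.51-fold, 4.51-fold and 2.26-fold lower. Another Foxp1 probe, A_52_P276792, read 0.21, 0.96, -0.74 and 0.82, with PM2i-iPSC low, and the third read -4.43, -4.25, -4.02 and -3.74 with no 2-fold difference. Foxp2, known from speech and motor circuits, was well above background in MEF alone, at -3.81 and -5.52 by its 2 probes. Foxp3, the factor of regulatory T cells, read -2.66, -5.83, -4.18 and -3.90, with ES the high array at 9.02-fold above MEF. ES was also 2.87-fold above PM2i-iPSC and 2.38-fold above OM2i-iPSC. Of 4 blood markers, 4, 3, 2 and 3 were well above background on the arrays in the usual order, with summed levels of 2.72, 1.23, 1.16 and 1.73, and their part in the Foxp3 values was not tested. Foxp4 read 1.22, 0.54, 1.40 and -0.86 by its brightest probe, with OM2i-iPSC the low array, 4.24-fold below ES and 4.80-fold below PM2i-iPSC.

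Foxj1, the master regulator of motile cilia, was well above background in ES (-4.30) and PM2i-iPSC (-3.96) and in neither MEF (-8.88) nor OM2i-iPSC (-6.61). The folds over MEF were at least 5.86 and 7.41. Between the iPSC preparations the bound was at least 1.56-fold, since the PM2i-iPSC level was little above the OM2i-iPSC floor. Of the genes of motile cilia that Foxj1 controls, 17 probes were higher and 1 lower of 24 in ES, 13 and 1 of 22 in PM2i-iPSC, and 15 and 1 of 23 in OM2i-iPSC. Among all probes 34.3%, 34.0% and 35.9% were higher and 22.3%, 23.4% and 23.5% lower. Ccdc113, which encodes a ciliary protein, was not well above background in MEF and read -1.72, -1.33 and 0.25 in ES, PM2i-iPSC and OM2i-iPSC. OM2i-iPSC, without a Foxj1 signal above background, was the highest array for it, at least 137-fold above MEF. Rfx2 and Rfx3, by their brightest probes, were instead well above background in ES (-3.58 and -4.09) and PM2i-iPSC (-4.02 and -4.06) alone, as Foxj1 was. These levels too were little above the OM2i-iPSC floor. The bounds over OM2i-iPSC were at least 2.03-fold in ES and 1.49-fold in PM2i-iPSC for Rfx2. For Rfx3 they were 1.42-fold and 1.45-fold, under 2-fold. Whether these genes follow Foxj1 was not tested. Foxj2 read -0.23, 1.61, -0.36 and -0.22, with MEF high and the other 3 together, 3.57-fold, 3.93-fold and 3.56-fold lower. Foxj3, which acts in muscle and spermatocytes, read -1.02, -0.56, -0.48 and -1.06 by its brightest probe and showed no 2-fold difference there. Its dimmer probes, A_51_P172897 and A_52_P100208, were well above background in MEF and OM2i-iPSC alone. They were 2.48-fold and 3.37-fold higher in OM2i-iPSC, at -4.4 and -4.18, close to that array's floor of -4.6.

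Foxa1, a pioneer factor of endoderm and gland epithelium, read -3.0, -6.03, -4.49 and -2.48, and only in PM2i-iPSC was it not well above background. ES and OM2i-iPSC were high, 8.18-fold and 11.7-fold above MEF, and PM2i-iPSC was at least 2.81-fold below ES and 4.04-fold below OM2i-iPSC. Of the endoderm genes of the Foxa network, 9 of 16 probes were higher than MEF in ES, 11 of 18 in PM2i-iPSC and 7 of 15 in OM2i-iPSC, beside 34.3%, 34.0% and 35.9% of all probes. In each, 0 were lower, beside 22.3%, 23.4% and 23.5% of all probes. Sox17, an endoderm determinant, read -4.03, -3.80 and -3.09 in ES, PM2i-iPSC and OM2i-iPSC and was not well above background in MEF. Albumin (Alb) read -1.23 in PM2i-iPSC, 13.9-fold above MEF, and was not well above background in ES or OM2i-iPSC. The yolk sac and liver genes Afp and Ttr were not well above background on any array.

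The iPSC preparations were next set against ES and against each other, to see which members mark one of them. No forkhead probe was specific to PM2i-iPSC, OM2i-iPSC or ES at 4-fold from each other array: 0 of 47 each, beside 1.19%, 1.42% and 0.505% of all probes. In PM2i-iPSC against ES, on the same slide, 3 of 35 probes (8.57%) were higher, beside 14.8% of all, and 7 (20.0%) lower, beside 12.6%. In OM2i-iPSC against ES 7 of 40 (17.5%) were higher, beside 20.3%, and 9 (22.5%) lower, beside 15.4%. Between the preparations, 3 of 37 (8.11%) were higher in PM2i-iPSC, beside 14.3%, and 10 (27.0%) were higher in OM2i-iPSC, beside 17.0%.

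The nearest to a member of 1 preparation was Foxb1, a factor of hypothalamus and neural tube. Foxb1 read -4.80, -4.90, -5.11 (not well above background) and -2.69, so only OM2i-iPSC was high, by 4.30-fold over ES, 4.61-fold over MEF and at least 3.73-fold over PM2i-iPSC. Foxl2, the factor of ovarian granulosa cells and eyelid, read -2.43, -1.03, -2.11 and -0.00. OM2i-iPSC was the highest array, 5.4-fold above ES, 4.31-fold above PM2i-iPSC and 2.04-fold above MEF, and at a 2-fold line Foxb1 and Foxl2 formed the OM2i-iPSC class, beside 6.79% of all probes. The excess of Foxl2 over MEF, 1.03 on the log2 scale, fell to 0.29 with median scaling and to 0.81 with quantile normalisation, under 2-fold, so Foxl2 is outside that class in these settings. Foxi1, a factor of inner ear and kidney ion transport, was well above background in OM2i-iPSC alone, at -4.50. This is at least 5.11-fold above MEF, but the bounds are only 1.55-fold over ES and 1.07-fold over PM2i-iPSC, both under 2-fold. Foxe1, a thyroid factor, read -3.09 in MEF and -3.46 in OM2i-iPSC and was not well above background in ES or PM2i-iPSC. The probe nearest to a PM2i-iPSC class was A_51_P138044 of Foxo1, at 2.45-fold above its nearest array, and that nearest to an ES class A_52_P431139 of Foxn2, at 2.66-fold.

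Foxn1, the thymic epithelium factor, read -3.01, -5.28, -3.45 and -4.34, 4.85-fold above MEF in ES and 3.57-fold in PM2i-iPSC. Keratinocyte markers summed to 0.917, 3.28, 1.83 and 5.55, and their part in the Foxn1 values was not tested.

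**Figure D5:**
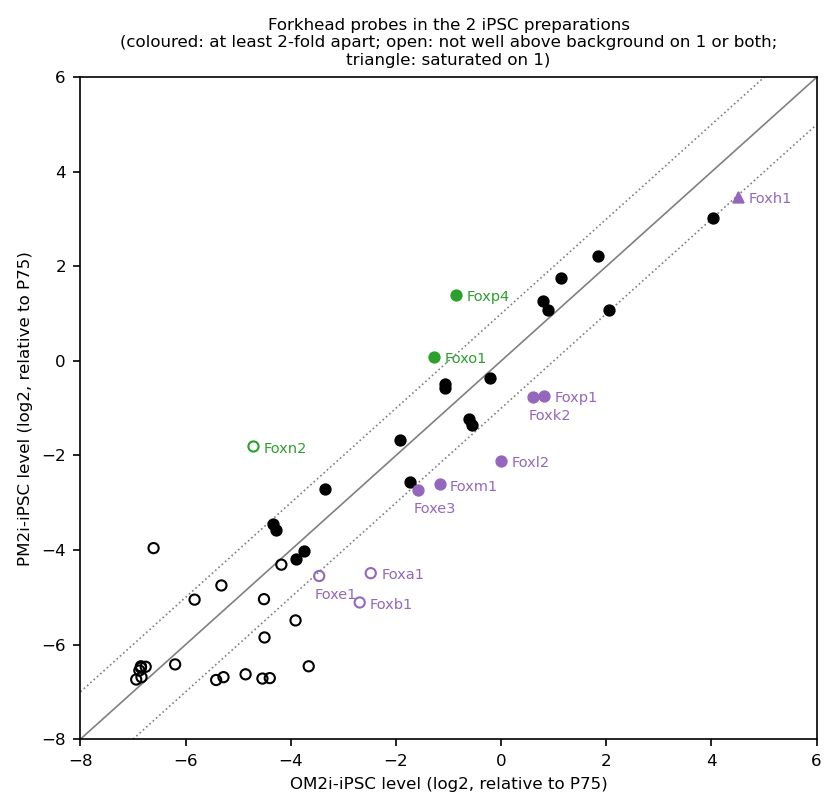
Level of the forkhead probes in OM2i-iPSC (x axis) and PM2i-iPSC (y axis), log2 relative to the 75th percentile, with equality as a solid line and 2-fold as dotted lines. The 9 purple probes drawn lie at least 2-fold toward OM2i-iPSC, Foxl2 at -0.00 against -2.11 among them, and the 3 green ones toward PM2i-iPSC, and open points outside the lines without colour have no 2-fold bound.

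The remaining members showed little. In all, 27 probes of 19 genes were well above background on every array, and 4 on none, namely those of Foxa3, Foxd4 and Foxn4 and 1 of Foxo3a. A set of 8 probes of 7 genes was well above background in MEF alone (Foxd1, Foxf1a, Foxf2, Foxi2, Foxl1, Foxo3a and Foxp2). The lower MEF floor bears on that count, since only 3 of the 8 (Foxd1, Foxf2 and the Foxp2 probe at -3.81) exceeded in MEF the highest floor of the 4 arrays, -4.59. These patterns were not counted over all probes, so the counts describe the members and are no result about the family. Foxb2, a factor of the developing brain, read 1.34, 0.75 and 1.33 in ES, MEF and PM2i-iPSC, and its OM2i-iPSC spot was flagged as an outlier. Of the forkhead genes under older names, Foxn3 was at least 2-fold lower than MEF in ES by 2 of its 3 probes, 2.62-fold and 4.95-fold, and Foxs1, a factor of pericytes, was 2.52-fold lower in ES.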

How the data were processed

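Gene expression in ES, MEF, PM2i-iPSC and OM2i-iPSC was measured on 4 one-colour Agilent mouse arrays, 1 per group. Per the file headers, the deposited intensity is the processed signal of Feature Extraction 9.5.3.1 (MEF) or 10.7.3.1 (the other 3), background-corrected by the software and not scaled between arrays. The authors' series table holds the same values rounded, within 0.5%. Control spots and flagged outlier spots were left out, spots of a probe averaged, and log2 taken relative to the 75th percentile of the array (3160.1, 1876.7, 3530.7 and 3460.7 in ES, MEF, PM2i-iPSC and OM2i-iPSC). A difference was called at 2-fold and a class at 4-fold. A saturated brighter side or a dim darker side gave a bound, with a dim probe raised to the array's lowest well-above-background signal where it lay under that. Folds were computed with Python 3.11.15 and pandas 2.3.3 and tested on simulated data, and normexp was run with limma 3.58.1. The members and lists were chosen with earlier results of these data known. Named genes were those in a class, 4 at each end of each comparison, a fixed list of family members, and up to 4 per gene list. Lefty2 was named beside Lefty1 in addition, as were Cks1b and Gata6 in their lists. The number of arrays limits the precision, and no p-value was computed. Affymetrix samples (4) were not used, since no table here pairs their probe sets with genes. Alternatives were median, quantile and normexp scaling, the series table, other treatments of dim and outlier spots, other class lines and counts by gene. One member is withheld and is counted but not reported here, nor drawn in the plots of single genes.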

Additional observations from a re-analysis of the deposited data

Results flagged for a closer look

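Foxl2 was singled out because the preparations moved away from MEF in opposite directions by at least 2-fold. Its 1 probe differed from MEF by -1.08 on the log2 scale in PM2i-iPSC and by 1.03 in OM2i-iPSC. The opposite 2-fold call depends on the scaling. The OM2i-iPSC difference of Foxl2 was 0.29 with median scaling and 0.81 with quantile normalisation, and the PM2i-iPSC difference was -0.56 with normexp, each under 2-fold. Each group is 1 array, so the difference between the preparations was not tested, and no explanation was weighed.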

How the results depend on the processing

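The 17 counts and the 115 probe differences of at least 2-fold were recomputed. None of the differences changed sign, but 257 of 890 recomputed values moved by more than the spot SD of a difference, 76, 67 and 71 of 115 with median, quantile and normexp scaling, where 9, 16 and 22 fell under 2-fold. Of 180 recomputed counts 148 stayed within 1.5 times, and the series table and the kept outlier spots moved none. The fibroblast class (4) had 0 probes where all arrays had to be above background, 9 at a 2-fold line and 2 at 8-fold. The pluripotent class (2) had 1 probe with median scaling, quantile normalisation, normexp, 1 shared floor or an 8-fold line, 0 by the brightest or median probe of a gene, and 5 without the dim filter or at a 2-fold line. At a 2-fold line the PM2i-iPSC, OM2i-iPSC and ES classes (0) had 1, 2 and 2 probes, and without the dim filter OM2i-iPSC had 2. Counted by brightest probe, higher genes were 7 in ES against MEF (12 probes), 7 in OM2i-iPSC against MEF (13), 4 in PM2i-iPSC against MEF (10), 1 in PM2i-iPSC against ES (3) and 1 against OM2i-iPSC (3). By the median of a gene's probes these last 3 were 6, 1 and 1. Without the dim filter higher probes were 15 in OM2i-iPSC against ES (7), 7 in PM2i-iPSC against ES (3) and 18 in PM2i-iPSC against MEF (10), and lower ones 18 in PM2i-iPSC against OM2i-iPSC (10). With normexp lower probes were 5 in OM2i-iPSC against ES (9) and 3 in PM2i-iPSC against ES (7). With only probes above background on both arrays, lower probes were 4 in PM2i-iPSC against ES (7) and 8 against MEF (14). Requiring signal on every array removes members that are dark on one, and counting by gene leaves fewer items. The cause was not tested for the other settings. No paired analysis was possible because each group is 1 array, and a slide block could not be fitted and was not run for the same reason. Signal over background limits Foxf1a, Foxl1, Foxo3a, Foxi2 and Foxp2, which were near or below the floors of the other arrays.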
